A study of Sus scrofa with 23 samples.

Results

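The genes described here are those whose RNA differed between the 2 parts of the cloned porcine blastocyst, in the same direction, in clones of a Duroc and of a Laiwu donor. Within a group, the rule asked for a gap of over 1 in log2(FPKM + 1) between the parts and an FPKM of 1 or more in the higher part. FPKM counts the fragments of a gene relative to its length in kilobases and to all fragments of its library. Of the 8603 genes in the table, 6556 reached an FPKM of 1 in a part of both clone groups, and 82 met the rule in both with the same sign. Of these, 80 (1.22% of genes tested in both) were higher in the part with the inner cell mass (ICM) and 2 (0.0305%) were higher in the trophectoderm (TE). By the name the authors gave it, the table holds differentially expressed genes, so a share over all genes is a share of that table.

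The NT-D blastocysts were made by nuclear transfer from a Duroc ear fibroblast line and the NT-LW blastocysts from a Laiwu line. Each line came from 1 boar, so breed, donor animal and library cannot be told apart between the clone groups. In both groups the nuclei went into in vitro matured oocytes of hybrid sows, and the embryos were cultured in PZM3 medium to the blastocyst stage. The IV-D blastocysts, used for comparison, came from inseminated Duroc sows and were flushed without culture. The study states that its clones were all male, whereas IV-D embryos were not sexed and their pools mixed males and females. Blastocysts were cut by hand into IT, which held ICM together with some TE, and TE, which held trophectoderm alone, and several were pooled for a library. A gene of the trophectoderm is thus present in both parts, which limits how far it can be higher in TE. A gene of the ICM alone has no such limit in IT. Each condition had 1 library among those used here, so there is no replicate check and no p-value between IT and TE within a group. The study describes replicate NT-D and IV-D blastocyst libraries, which were not used here. The age of the embryos within the blastocyst stage is not given in the labels.

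The blastocyst is the embryo just before it attaches. Its outer epithelium, the trophectoderm, pumps fluid into the cavity and later forms most of the placenta. The inner cell mass separates into epiblast, which forms the fetus and keeps pluripotency factors such as NANOG, and hypoblast, an endoderm that lines the cavity, carries the receptor PDGFRA and secretes matrix and carrier proteins as the yolk sac does later. A difference in IT against TE in bulk RNA can come from more cells of a type or from more RNA per cell, and these cannot be told apart here.

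The 6 blastocyst libraries held 14952784 to 21503604 fragments, of which 96.2% to 97.2% fell on genes of the table. The value of 3 fragments in a gene of 1 kilobase, taken as the floor, was 0.14 to 0.201 FPKM. The intervals given below for ratios are exact 95% intervals for counting error only and do not cover variation between embryos. A ratio is of the FPKM values themselves, and a log2 difference is of FPKM + 1, which understates the change of genes at low level.

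The labels of the parts were first read against markers. NANOG, the defining epiblast factor, was listed at 0 fragments in all 3 TE libraries and at 97, 74 and 174 fragments in NT-D, NT-LW and IV-D IT. The trophectoderm factor GATA3 lay at 17.1 FPKM in IT and 18.5 in TE in NT-D, and at 14.4 and 15.1 in NT-LW. GATA2, another factor of that lineage, lay between 11.5 and 13.1 FPKM in the 4 cloned libraries. The keratins of the trophectoderm were lower in IT, with KRT8 at 441 against 735 FPKM in NT-D and 599.7 against 1033 in NT-LW, but both differences were within the fold rule. KRT18 was likewise 1.72-fold and 1.91-fold higher in TE. In IV-D, GATA3 lay at 5.42 FPKM in IT and 14.03 in TE, past the fold, while GATA2 had a ratio of 1.01. The IV-D keratins were slightly higher in IT, with KRT8 at 626 against 549 FPKM and KRT18 at 627 against 582. The epiblast ligand GDF3, given below, had its higher value in TE in both clone groups. The markers thus went different ways. GATA2 and GATA3 were near level between the cloned parts, and both keratins were lower in IT in the clones but not in IV-D. POU5F1, SOX2, SOX17 and CDX2 were not analysed here.

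In NT-D, 292 of 6757 genes tested were higher in IT (4.32%) and 26 were higher in TE (0.385%). In NT-LW, 345 of 6801 were higher in IT (5.07%) and 80 were higher in TE (1.18%). The 80 genes higher in IT in both made up 27.4% of the NT-D calls and 23.2% of the NT-LW calls, and the 2 higher in TE in both made up 7.69% and 2.5%. The median difference over all genes tested was 0.03 in NT-D against 0.26 in NT-LW, so the NT-LW comparison as a whole leaned towards IT. With median-ratio scaling that lean was removed, and NT-LW then had 200 genes higher in IT and 213 higher in TE. The 2 sets of differences share no library, and across the 6556 genes tested in both their Pearson r was 0.287, given as a description because genes are not independent replicates. Another 17 genes passed the rule in both groups with opposite signs.

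**Figure D1:**
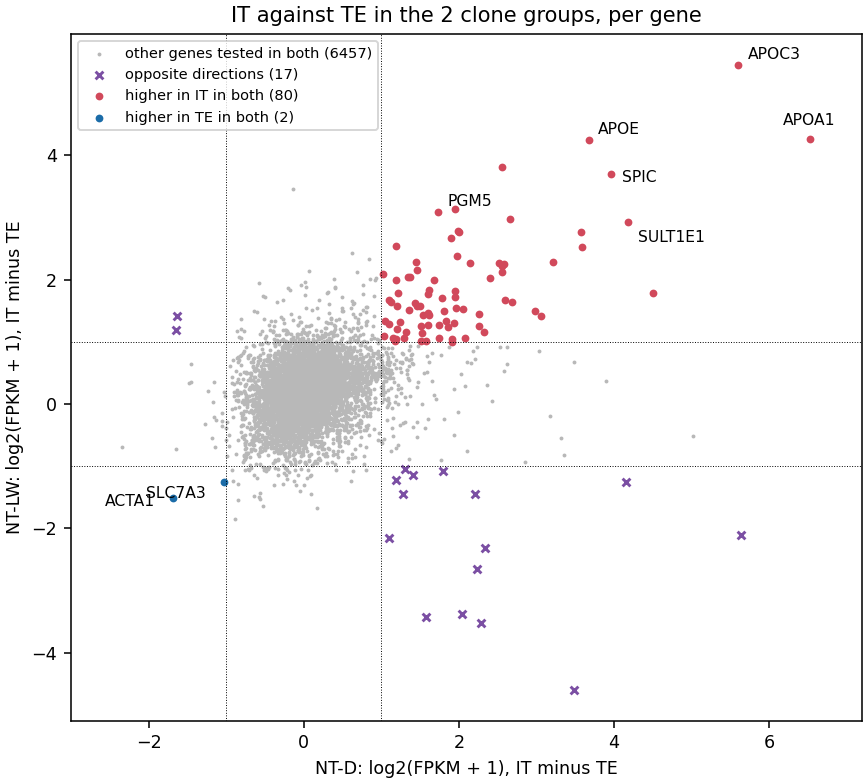
Each point is 1 gene of the 6556 tested in both clone groups, with the NT-D difference in log2(FPKM + 1), IT minus TE, on the x axis and the NT-LW difference on the y axis, and dotted lines at the fold of the rule. The 80 red points lie in the upper right field, led by APOC3 and APOA1, the 2 blue points (ACTA1 and SLC7A3) in the lower left, and most of the 17 crosses at lower right.

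The largest shared differences were those of apolipoproteins, the protein part of lipoprotein particles, which the liver and the yolk sac secrete. APOC3, an inhibitor of lipoprotein clearance, was at 47.7 FPKM in IT and 0 in TE in NT-D, at 91.0 and 1.09 in NT-LW, and at 0.916 and 17.4 in IV-D. Both cloned IT libraries thus lay far above both cloned TE libraries, by at least 167-fold in NT-D, against the floor of 3 fragments, and by 83.4-fold (48.6 to 157) in NT-LW. IV-D went the other way, 19.03-fold (10.6 to 37.5) higher in TE. APOA1, the main protein of high-density lipoprotein, was at 144 and 0.574 FPKM in NT-D IT and TE, at 458 and 22.8 in NT-LW, and at 20.2 and 20.9 in IV-D. The cloned parts differed 251-fold (162 to 411) and 20.1-fold (18.8 to 21.5), while the ratio of TE to IT in IV-D was 1.03 (0.935 to 1.14). APOE, a carrier that binds the low-density lipoprotein receptor, was at 11.7 and 0 FPKM in NT-D, 27.1 and 0.469 in NT-LW, and 5.55 and 2.86 in IV-D. Its ratio of IT to TE was 57.7 (32.9 to 112) in NT-LW and 1.94 (1.44 to 2.65) in IV-D. A further apolipoprotein, APOA2, was high in every part and not a shared gene, at 793 and 409 FPKM in NT-D and at 1143 and 833 in NT-LW.

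APOC3 and APOA1 are neighbours in Sscrofa11.1, at chr9:44211171-44213538 on the plus strand and chr9:44216481-44218360 on the minus strand, with 2942 bases between them, the closest pair among the 67 genes higher in IT that have a position. The 250 bases before each annotated start are shown because these 2 genes gave the largest differences and lie in 1 cluster. Capitals mark the letters of 2 searched motifs, GGAATG (TEAD) and GCCNNNGGC (AP-2), and the bases run 5′ to 3′ on the strand of the gene.
APOC3, chr9:44210921-44211170, plus strand: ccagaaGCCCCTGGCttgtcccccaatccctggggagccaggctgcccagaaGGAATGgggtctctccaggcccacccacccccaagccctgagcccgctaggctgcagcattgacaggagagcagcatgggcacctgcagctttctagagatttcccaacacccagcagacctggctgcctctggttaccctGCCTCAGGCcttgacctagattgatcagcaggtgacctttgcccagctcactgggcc
APOA1, chr9:44218361-44218610, minus strand: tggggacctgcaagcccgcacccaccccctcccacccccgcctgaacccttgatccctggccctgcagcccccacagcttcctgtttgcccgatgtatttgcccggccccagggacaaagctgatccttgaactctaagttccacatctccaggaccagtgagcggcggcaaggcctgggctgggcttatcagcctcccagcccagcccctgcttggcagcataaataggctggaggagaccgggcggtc
The APOC3 window held 1 TEAD match and 2 AP-2 matches and the APOA1 window held no match to any of the 4 motifs. Among the 66 genes higher in IT with such a window, read from the genome with the RefSeq annotation and searched on both strands, AP-2 letters were in 13 (19.7%, against 23.7% of 6811 genes of the table) and TEAD letters in 4 (6.06% against 9.62%). The GATA letters AGATAA were in 5 (7.58% against 6.92%), or in 4 of 65 (6.15%) without APOE, whose annotated start may lie inside the gene, and the octamer ATGCAAAT in 0 (0% against 0.925%). A match of letters is a description of the window, not a binding site.

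The transcription factors of the pluripotent cells formed the next group. Of 16 genes of a pluripotency and epiblast list tested in both clone groups, 6 were higher in IT in both, beside the 1.22% of all genes tested in both, and none was higher in TE. This list and those below were written with earlier results of these data known. Their counts are thus a description and not independent support. SPIC, an ETS factor of the inner cell mass, was at 46.5 and 2.06 FPKM in NT-D IT and TE, 117 and 8.08 in NT-LW, and 376 and 0.0841 in IV-D, the last from 2 fragments. IT was the higher part by 22.6-fold (17.1 to 30.5) in NT-D and 14.5-fold (12.6 to 16.6) in NT-LW. OTX2, a homeobox factor of epiblast and hypoblast, was at 9.56 and 0.797 FPKM in NT-D, 25.3 and 0.876 in NT-LW, and 56.0 and 0.162 in IV-D. All 3 TE libraries were under 1 FPKM and all 3 IT libraries above 9. NANOG was at 5.00, 3.76 and 9.80 FPKM in NT-D, NT-LW and IV-D IT and at 0 in each TE, which gives differences of at least 23.8-fold, 20.3-fold and 44.7-fold. GSC, a homeobox factor that responds to Nodal, was at 4.29 and 0 FPKM in NT-D, 7.32 and 1.04 in NT-LW, and 39.4 and 0 in IV-D.

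KLF4, a zinc-finger pluripotency factor, was present in both parts, at 9.87 and 2.11 FPKM in NT-D and 9.74 and 2.81 in NT-LW. Its ratio was 4.68 (3.80 to 5.83) in NT-D against 3.47 (2.90 to 4.16) in NT-LW, the smallest of the 6. IL6R, the receptor chain for interleukin 6, was at 1.73 and 0.0554 FPKM in NT-D and 4.22 and 0.261 in NT-LW. The other members of the list stayed inside the rule in at least 1 clone group. LIN28A, an RNA-binding protein, was at 8.93 and 6.95 FPKM in NT-D and 8.80 and 2.20 in NT-LW. GDF3, a TGF-beta ligand of the epiblast, had its higher value in TE in both clone groups (9.68 and 14.0 FPKM in NT-D, 6.73 and 9.08 in NT-LW) and in IT in IV-D (8.26 and 1.22). The median difference of the list was 0.42 in NT-D, while NT-LW had 0.62 and IV-D 1.90, beside 0.03, 0.26 and 0.19 over all genes tested.

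Of 14 hypoblast genes tested in both clone groups, 5 were shared and higher in IT, beside the same 1.22%, and 3 of them, APOE, APOA1 and OTX2, are described above. PDGFRA, the receptor that marks the hypoblast, was at 1.66 and 0.0393 FPKM in NT-D, 2.22 and 0.121 in NT-LW, and 11.6 and 0.0614 in IV-D. It was low in both cloned IT libraries, with 115 and 156 fragments against 2 and 7 in TE, and the NT-D ratio of 42.3 has an interval of 11.5 to 354. FN1, the matrix protein fibronectin, was at 1.36 and 0.0353 FPKM in NT-D, 9.37 and 0.772 in NT-LW, and 2.45 and 0.092 in IV-D. GATA6, an early hypoblast factor, was not a shared gene, at 34.0 and 24.0 FPKM in NT-D and 37.4 and 36.3 in NT-LW. GATA4, which follows it, was under 1 FPKM in all 6 parts. The laminin chains LAMB1 and LAMC1 were within the fold rule in both clone groups. Past the fold, 1 gene of the list was higher in TE in NT-LW and 1 in IV-D. Counting differences of any size, 4 genes of the list were lower in IT in both clone groups and 13 were higher. With median-ratio scaling these were 7 and 11. The median of the list was 0.49 in NT-D against 0.28 in NT-LW, and with median-ratio scaling the NT-LW median was -0.01.

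**Figure D2:**
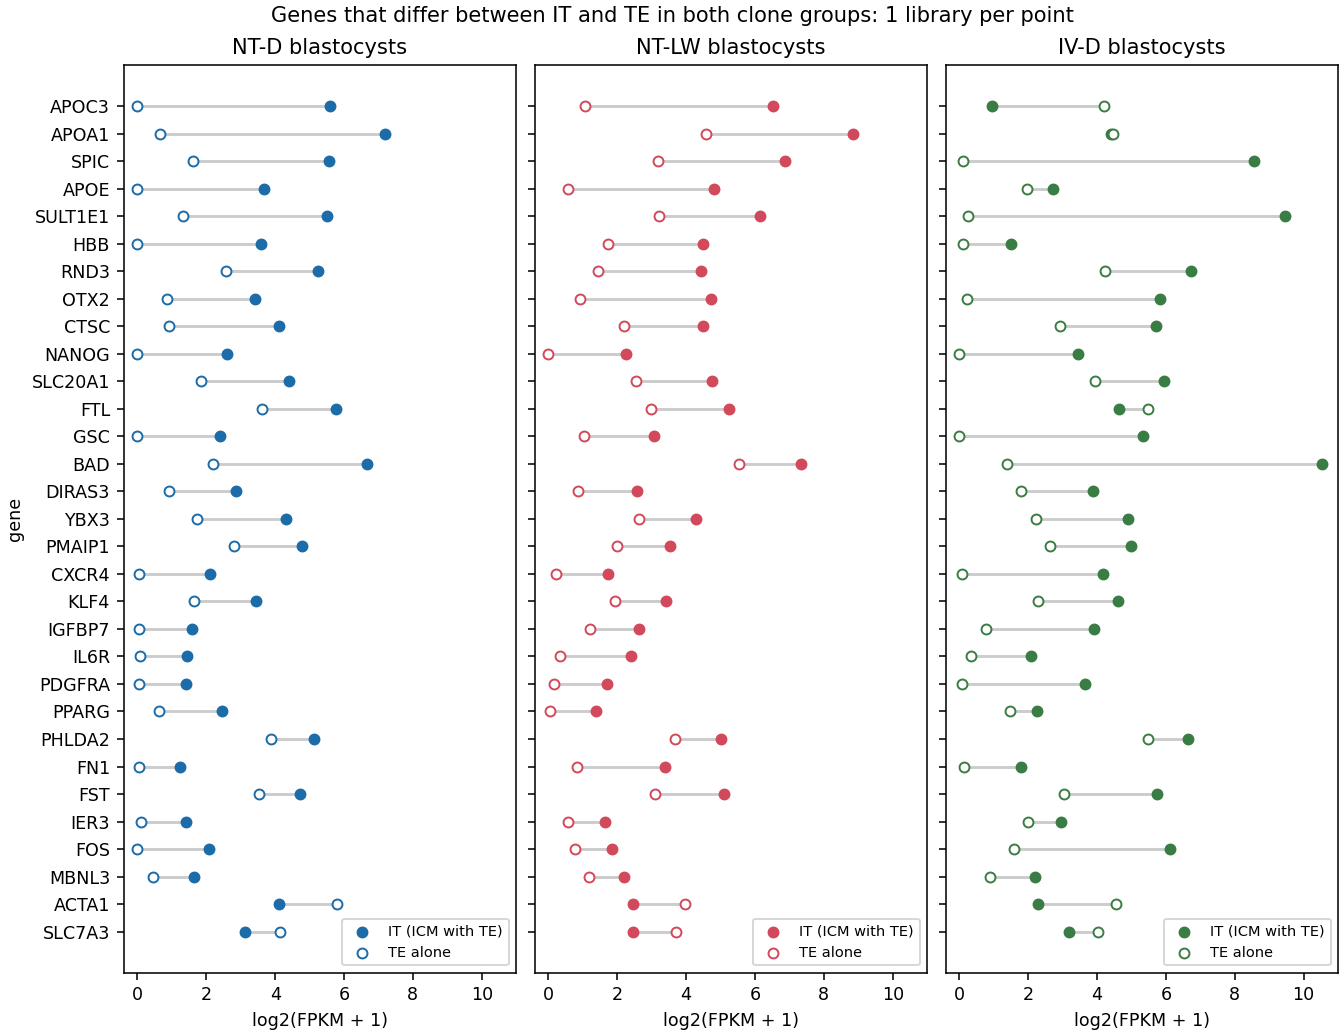
Level in log2(FPKM + 1) on the x axis for 31 named genes that differ in both clone groups, 1 row a gene, in panels for NT-D, NT-LW and IV-D, with a filled point for IT and an open point for TE. IT lies to the right of TE for every gene but ACTA1 and SLC7A3 in the clones, whereas APOC3 and FTL are reversed in IV-D and APOA1 is level there.

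The members that follow were put together by known role after their values were seen, so the grouping is only an order of description. C4BPA, a complement regulator, was at 2.89 and 0.424 FPKM in NT-D IT and TE and at 3.89 and 0 in NT-LW. PROS1, an anticoagulant cofactor, was at 6.18 and 2.54 in NT-D and 15.4 and 2.87 in NT-LW. CIDEB, a lipid droplet protein that takes part in the loading of lipoproteins, was at 6.88 and 0 in NT-D and 13.5 and 4.13 in NT-LW. In IV-D all 3 were higher in IT as well, with C4BPA short of the fold at 0.90 on the log2 scale. FTL, the light chain of the iron store ferritin, was at 52.9 and 11.2 FPKM in NT-D and 37.2 and 6.94 in NT-LW, but at 23.7 and 43.7 in IV-D. Its IV-D parts were thus in the reverse order, short of the fold. SERPINB2, a plasminogen activator inhibitor, was at 7.57 and 0.0275 in NT-D and 1.99 and 0.122 in NT-LW. HBB, a beta-globin chain, was at 10.9 and 0 in NT-D, 21.3 and 2.29 in NT-LW, and 1.80 and 0.0751 in IV-D. The blood and immune list had 4 genes in the table, HBB, CXCR4, AIF1 and FCER1G. Its summed level was 1147 in IT and 943 FPKM in TE in NT-D, and 493 and 457 in NT-LW, nearly all of it from AIF1 and FCER1G, which were high in all 4 cloned libraries. In IV-D the sum was 54.1 in IT and 682 in TE, with 2 genes of the list higher in IT and 2 higher in TE past the fold. Whether blood cells had a part in the HBB values was not tested.

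Some members act in signalling between cells. FST, which binds and blocks activin, was at 25.4 and 10.6 FPKM in NT-D, 33.0 and 7.54 in NT-LW, and 52.4 and 7.16 in IV-D, and it was the 1 shared gene among 16 of the Nodal, BMP and TGF-beta list. NRG1, an ErbB ligand, was at 1.51 and 0.0892 in NT-D and 1.32 and 0 in NT-LW. EFNA1, a ligand of Eph receptors, was at 15.3 and 6.94 in NT-D and 13.9 and 6.001 in NT-LW. These 3 secreted or surface-bound proteins were also higher in IT past the fold in IV-D. Among receptors, CXCR4, which binds the chemokine CXCL12, was at 3.28 and 0.035 FPKM in NT-D, 2.34 and 0.155 in NT-LW, and 17.0 and 0.0609 in IV-D. CMKLR2, a chemerin receptor, was at 11.05 and 0 in NT-D, 8.83 and 0.713 in NT-LW, and 36.3 and 0 in IV-D. TLR3, a sensor of double-stranded RNA, was at 3.02 and 0.171 in NT-D and 4.73 and 0.754 in NT-LW. The 3 receptors were under 1 FPKM in each cloned TE library and passed the fold in IV-D as well. The immediate early genes FOS and IER3 were the 2 shared genes of 9 in the FGF and ERK list. FOS was at 3.24 and 0 FPKM in NT-D, 2.57 and 0.715 in NT-LW, and 68.8 and 1.99 in IV-D.

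Among members that move solutes across the membrane, SLC3A1 and SLC7A9 encode the heavy and the light subunit of 1 cystine and basic amino acid transporter, and both were members. SLC3A1 was at 9.03 and 2.71 FPKM in NT-D and 5.34 and 1.05 in NT-LW, and SLC7A9 was at 2.13 and 0.11 in NT-D and 4.66 and 0.889 in NT-LW. In IV-D the light subunit was at 22.5 and 0.443 and the heavy subunit at 14.2 and 8.90, within the fold. SLC20A1, a phosphate transporter, was at 20.2 and 2.63 in NT-D, 26.1 and 4.78 in NT-LW, and 60.4 and 14.3 in IV-D. SLC39A10, a zinc importer, was at 6.13 and 0.484 in NT-D and 4.34 and 0.949 in NT-LW. The nucleoside transporter SLC28A2 and FXYD3, a regulator of the sodium pump, were higher in IT in all 3 groups. The ion and water transport list itself had no shared gene among 7 tested in both.

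PMAIP1 and BAD are BH3 proteins that oppose the survival proteins of the BCL2 family. PMAIP1 was at 26.3 and 5.97 FPKM in NT-D, 10.5 and 2.95 in NT-LW, and 30.9 and 5.16 in IV-D. BAD was at 102 and 3.53 in NT-D, 159 and 45.5 in NT-LW, and 1479 and 1.60 in IV-D. The ratio of BAD was 28.8 (21.5 to 39.5) in NT-D against 3.50 (3.21 to 3.81) in NT-LW. Of 17 genes of the p53 and apoptosis list tested in both, PMAIP1 was the 1 shared gene. DIRAS3 and PHLDA2, both imprinted in mammals, were higher in IT in all 3 groups. DIRAS3 was at 6.22 and 0.867 FPKM in NT-D, 4.95 and 0.80 in NT-LW, and 13.7 and 2.44 in IV-D. PHLDA2, which restrains placental growth, was at 34.0 and 13.8 in NT-D, 31.1 and 11.9 in NT-LW, and 97.7 and 43.3 in IV-D.

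Of the 20 genes of the trophectoderm list, all tested in both clone groups, 3 were higher in IT in both past the fold (beside 1.22%) and none was higher in TE. The list was written for the other part, but IT holds trophectoderm as well. SULT1E1, an estrogen sulfotransferase, was at 44.3 and 1.49 FPKM in NT-D, 69.3 and 8.23 in NT-LW, and 699 and 0.177 in IV-D. PPARG, a nuclear receptor of lipid metabolism, was at 4.50 and 0.537 in NT-D and 1.61 and 0.0316 in NT-LW. MBNL3, a splicing regulator, was at 2.10 and 0.368 in NT-D and 3.57 and 1.27 in NT-LW. SULT1E1 and MBNL3 passed the fold in IV-D as well, and PPARG, at 3.80 and 1.79 FPKM, did not. FABP5, a fatty acid carrier of the same list, had opposite signs, at 69.2 and 2.95 in NT-D and 19.6 and 47.8 in NT-LW. Over the list as a whole, the median difference was -0.12 in NT-D against -0.00 in NT-LW, and its summed level was 1904 FPKM in IT and 2671 in TE in NT-D, and 2231 and 3622 in NT-LW. Counting differences of any size, 7 genes of the list were lower in IT in both clone groups and 5 were higher. The split was 6 and 6 after rescaling to a sum of 1000000, which turned the NT-LW median to 0.10, and 12 and 4 with median-ratio scaling.

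The 2 genes higher in TE in both clone groups were ACTA1 and SLC7A3. ACTA1, skeletal muscle alpha-actin, was at 16.4 FPKM in IT and 55.0 in TE in NT-D, at 4.52 and 14.8 in NT-LW, and at 3.91 and 22.5 in IV-D. TE was the higher part by 3.35-fold (3.08 to 3.65), 3.27-fold (2.79 to 3.84) and 5.76-fold (4.87 to 6.85). SLC7A3, a cationic amino acid transporter encoded on the X chromosome, was at 7.73 and 16.8 in NT-D, 4.45 and 12.01 in NT-LW, and 7.995 and 15.4 in IV-D. Its TE to IT ratio was 2.17 (1.97 to 2.40) and 2.70 (2.39 to 3.06) in the clones and 1.93 (1.74 to 2.14) in IV-D, where it missed the fold on the log2 scale at -0.87.

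The other shared genes had these levels. RND3, which loosens the actin cytoskeleton, was at 36.8 and 4.99 FPKM in NT-D and 20.5 and 1.72 in NT-LW. CTSC, a lysosomal protease, was at 16.3 and 0.867 in NT-D and 21.4 and 3.61 in NT-LW. RUNX1T1, a transcriptional corepressor, was at 3.28 and 0.0853 in NT-D, 10.5 and 1.21 in NT-LW, and 29.1 and 0.0445 in IV-D. All 3 were higher in IT past the fold in IV-D. RPS28, a ribosomal protein whose short reads may be shared with processed copies, was at 1422 and 496 in NT-D and 914 and 449 in NT-LW, but at 507 and 950.5 in IV-D. Of the 80, 9 had no symbol, and ENSSSCG00000031023 was the most abundant of these at 146 and 24.7 in NT-D and 149 and 30.0 in NT-LW. Other members of known role were NOCT, a phosphatase of NADP with a daily rhythm, ZFP36L2, which speeds the decay of AU-rich mRNA, the kinases PLK2 and PDK4, and the ubiquitin carrier UBE2L6. NOCT was at 6.53 and 0.966 FPKM in NT-D and 14.3 and 5.19 in NT-LW, and ZFP36L2 at 3.82 and 0.329 and at 3.77 and 1.01. S100A6, a calcium-binding protein, was at 70.1 and 22.4 in NT-D and 21.8 and 8.46 in NT-LW, and at 24.1 and 31.5 in IV-D. The DNA-binding protein YBX3, the actin-severing protein SCIN, the phosphatase inhibitor PPP1R14A, the phospholipase PLA2G12B, the inositol synthase ISYNA1, the sulfotransferase CHST9 and the carboxypeptidase inhibitor LXN were higher in IT past the fold in IV-D as well. So were FAM111A, SGIP1, PGM5, DRAM1, SFT2D2, SDCBP2 and PM20D2, and SELENOM. CCDC172, PCP4L1, PARM1, SYTL2, CEP15 and ATF7IP2 completed the genes with a symbol, and of these ATF7IP2 alone passed the fold in IV-D, at 28.5 and 13.7 FPKM.

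IGFBP7, which fibroblasts also express, was at 2.003 and 0.032 in NT-D, 5.25 and 1.30 in NT-LW, and 14.0 and 0.701 in IV-D. The fibroblast list had 9 genes in the table, with COL1A1, COL1A2 and COL3A1 each at 0.118 FPKM or less in the 6 parts, and its summed level was 4.16 in IT and 0.146 in TE in NT-D and 5.72 and 1.86 in NT-LW.

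Over the whole set, the median FPKM of the 80 genes was 5.99 in IT and 0.487 in TE in NT-D, and 9.30 and 1.21 in NT-LW. In TE, 50 of the 80 were under 1 FPKM in NT-D and 32 in NT-LW, with 16 and 4 at 0 fragments. The rule chose these values, so they are a description. The gene just inside the rule was SELENOM, at 45.05 and 21.996 FPKM in NT-LW (1.002 on the log2 scale), and the gene just outside was FBXO32, at 6.19 and 2.65 in NT-D (0.98). The smaller of the 2 differences lay between 1 and 1.1 for 14 members, and 17 further genes had it between 0.9 and 1.

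A limma fit over the 4 cloned libraries, with the clone groups as the 2 replicates and clone group as a block, put an error on the differences. Of 7002 genes tested, 204 were higher in IT (2.91%) and 16 higher in TE (0.229%) at an adjusted p under 0.05. All 82 shared genes were among them, which follows in part from their choice on the same libraries and is not further evidence. The fit had 1 residual degree of freedom beside 51.2 from the prior, so the errors rest mainly on the spread over all genes, such as a standard error of 0.28 for the SPIC difference of 3.83 on the log2 scale. Without the block the fit called 0 genes, and 0 also with the IV-D pair added and without the minimum FPKM, with 406, 652 and 823 genes at an unadjusted p under 0.05.

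The in vivo blastocysts were not used by the rule, so they show how the genes shared by the clones behaved in other embryos. In IV-D, 60 of the 80 genes higher in IT in clones were higher in IT past the same fold (75.0%), beside 18.0% of the 7093 genes tested in IV-D, of which 77 were among the 80. In the other direction 4 were past the fold, beside 9.83% of genes tested, and 16 were within it. These 4 were APOC3, LY6G6C, ENSSSCG00000034995 and ENSSSCG00000028322. LY6G6C, a small membrane-anchored protein, was at 8.58 and 0.49 FPKM in NT-D, 7.66 and 1.76 in NT-LW, and 0.0492 and 39.2 in IV-D. Counting differences of any size, 69 of the 80 were higher in IT in IV-D. No share over all genes stands beside this count, and the median IV-D difference over all genes tested was itself above 0, at 0.19.

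The median IT minus TE difference of the 80 genes was 1.79 in NT-D, 1.65 in NT-LW and 2.32 in IV-D, and 46 of them (57.5%, beside 39.2% of genes tested in both clone groups) had a larger difference towards IT in IV-D than in either clone group. The largest IV-D differences were those of SULT1E1 at 9.22, BAD at 9.15 and SPIC at 8.44. All 3 were higher in IT in IV-D than in both cloned IT libraries and lower in TE than in both cloned TE libraries. Over the 80 genes, IV-D IT was above both cloned IT libraries in 48 (60%, beside 48.6% of genes tested in IV-D), and IV-D TE was below both cloned TE libraries in 16 (20%, beside 26.1%). The breed of the NT-D donor and of IV-D was the same. Cloning, in vitro culture, the source and maturation of the oocytes and embryo sex changed together between them and cannot be told apart. Each group also had its own hand cut, with an unknown share of TE in IT, its own embryo age and its own library. These were not tested and cannot be told apart from the rest.

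**Figure D3:**
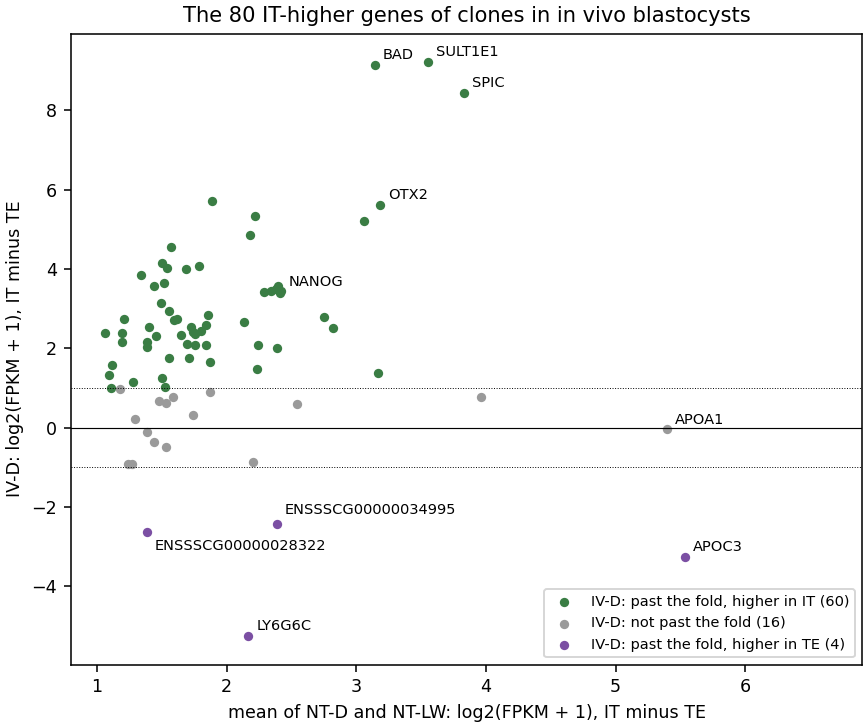
Each point is 1 of the 80 genes higher in IT in both clone groups, with the mean of the 2 clone differences in log2(FPKM + 1), IT minus TE, on the x axis and the IV-D difference on the y axis. The 60 green points lie above the upper dotted line at the fold, with BAD, SULT1E1 and SPIC highest, the 16 grey points lie within the fold, and the 4 purple points lie below it.

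The stages before the blastocyst were not used by the rule. Of the 80, 41 (51.3%) were under 1 FPKM in both oocyte libraries, beside 21.3% of the table. At the morula 70 (87.5%) and 68 (85.0%) were at 1 FPKM or more in NT-D and NT-LW, close to the 89.9% and 83.5% of the table. The cloned IT and TE values chose the genes, so their distance from the morula is a description. In both clone groups, 15 were lower in IT than in the morula past the fold, 11 were higher, 18 were within the fold and 36 differed between the groups in this respect. On the log2 scale, IT minus morula had a median of 0.21 for NT-D against -0.34 for NT-LW, beside -0.64 and -0.51 over all genes tested. In IV-D, whose parts the rule did not use, it was 0.84 beside -0.16 over all genes tested, with 35 of the 80 above the morula and 6 below past the fold. No share over all genes stands beside these counts against the morula, so they are not read as particular to the 80.

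SULT1E1 was at 0 FPKM up to the 4-cell stage in NT-D, at 342 at the 8-cell stage and 423 in the morula, before 44.3 in IT and 1.49 in TE. BAD rose from 33.2 FPKM at the 4-cell stage to 1028 in the NT-D morula, and was 102 in IT. The same 2 genes were at 1061 and 985 FPKM in the IV-D morula and at 699 and 1479 in IV-D IT. NANOG was at 0 in oocytes and 2-cell clones, at 56.4 and 130.4 FPKM at the 4-cell stage in NT-D and NT-LW, and at 5.55 and 6.75 in the morula, near its IT level. OTX2 was present from the oocyte, at 96.2 FPKM in the in vitro matured oocytes, and was 58.0 and 79.5 in the morulae.

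The 11 genes higher in IT than in the morula in both clone groups included APOC3, APOA1, HBB, FTL, CIDEB, C4BPA, SLC3A1 and PROS1. APOA1 was at 4.69 and 0.812 FPKM in the NT-D and NT-LW morulae against 144 and 458 in IT. APOC3 was at 7.21 and 0 in the morulae against 47.7 and 91.0. The 15 genes lower in IT than in the morula included SULT1E1, BAD, OTX2, KLF4, RUNX1T1, YBX3 and FOS.

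**Figure D4:**
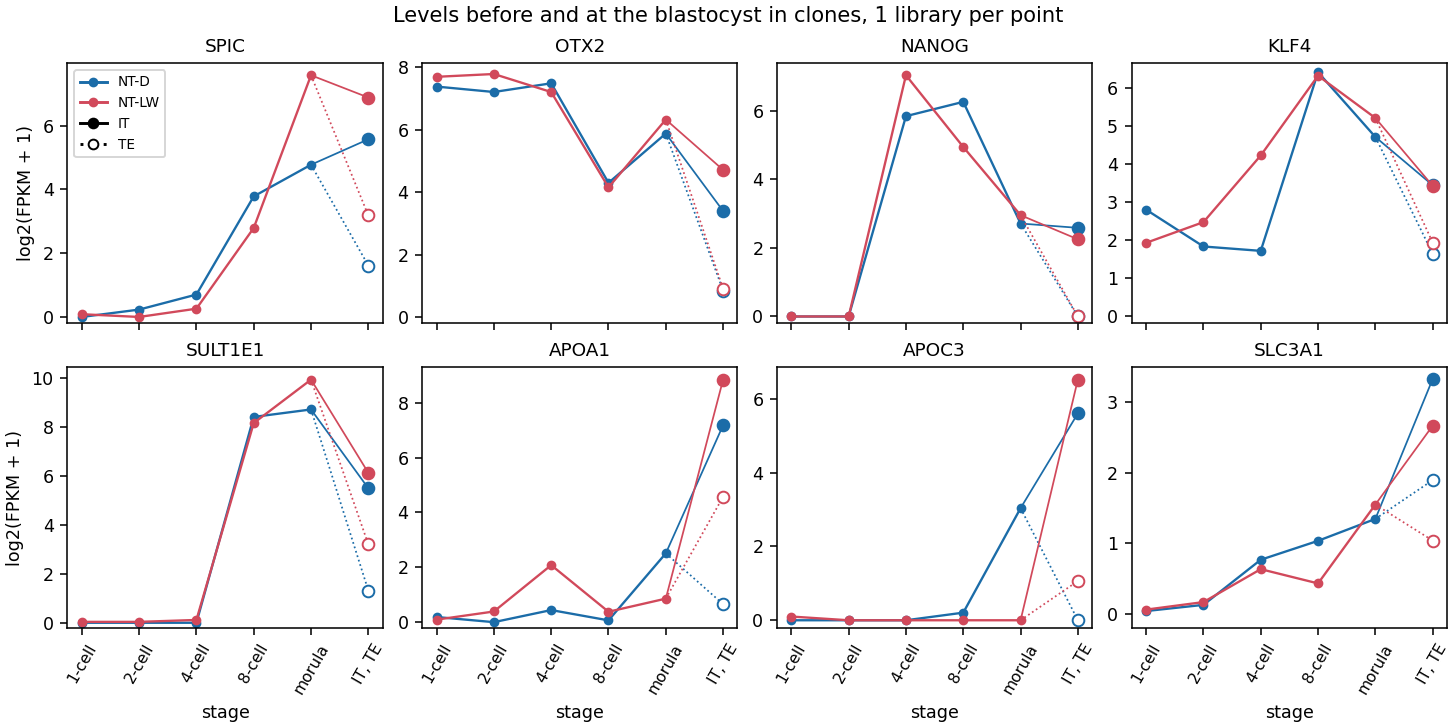
Level in log2(FPKM + 1) on the y axis for 8 genes from the 1-cell stage to the morula and in the parts of the blastocyst, with NT-D in blue, NT-LW in red, a filled last point for IT and an open last point for TE. SPIC and SULT1E1 are near 0 until the 4-cell stage, NANOG is highest at the 4-cell or 8-cell stage, and APOA1, APOC3 and SLC3A1 are highest in cloned IT.

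The gene lists, read as medians beside the 0.03, 0.26 and 0.19 of all genes tested in NT-D, NT-LW and IV-D, gave few other shared genes. Of the 25 junction and polarity genes tested in both, such as CDH1, OCLN and TJP1 of the epithelial seal, none was shared, and the medians were -0.15 in NT-D, -0.23 in NT-LW and -0.33 in IV-D. The 49 genes of oxidative phosphorylation held no shared gene, with medians of 0.11 and 0.33 in the clones. No shared gene was found among 32 cell cycle genes, 26 genes of the unfolded protein and stress response, 16 of sterol synthesis, 15 of Hippo signalling, 12 of glycolysis or 7 of WNT. With 1.25% of all genes tested in both being shared, lists of these sizes would each hold under 1 such gene at the share of the table, so these zeros say nothing particular about the lists. The cumulus cell list had 5 genes in the table and the oocyte list 18, with no shared gene in either. The lipid uptake and storage list held 3 shared genes of 14, APOA1, APOE and PPARG, which were described above.

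**Figure D5:**
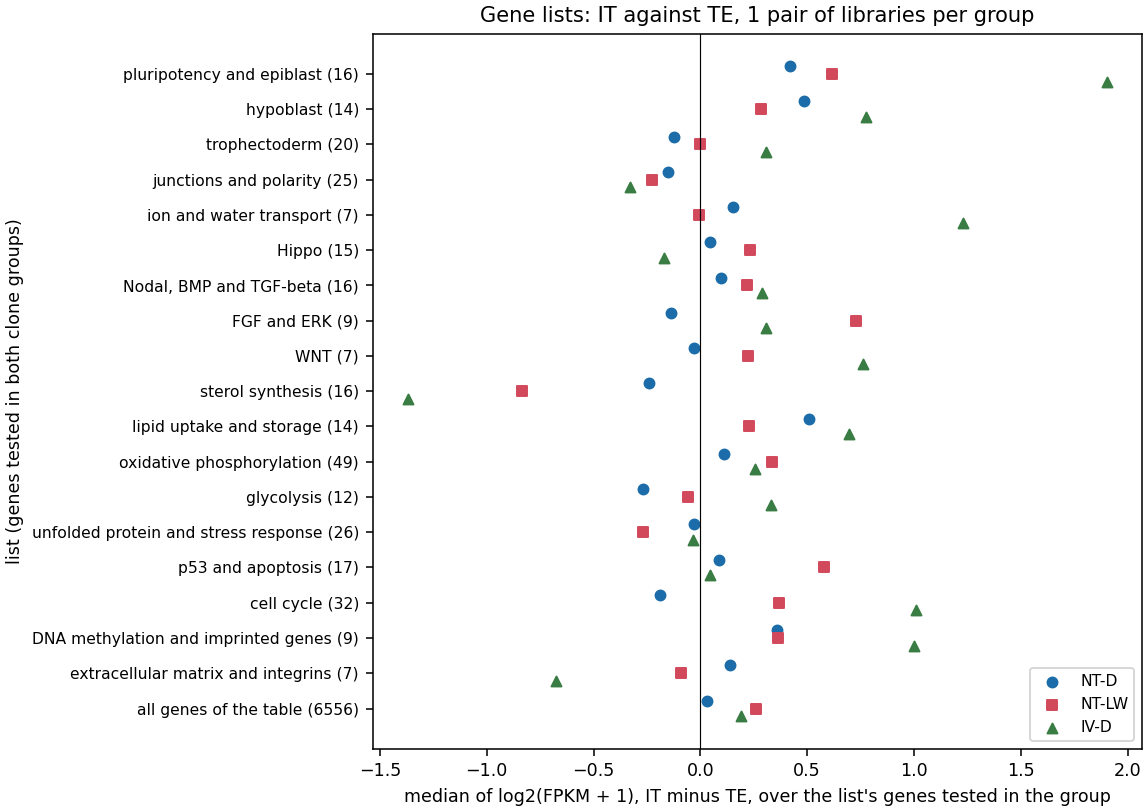
Median difference in log2(FPKM + 1), IT minus TE, on the x axis for each gene list, with circles for NT-D, squares for NT-LW and triangles for IV-D, and the number of genes tested in both clone groups in brackets. The pluripotency list lies to the right in all 3 groups, at 0.42, 0.62 and 1.90, and the sterol synthesis list to the left, at -0.24, -0.83 and -1.37.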

How the data were processed

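RNA of oocytes, embryos and blastocyst parts was measured in 23 libraries, 1 per condition. Per the labels and the study's methods, the authors made cDNA with the SMART-Seq v4 kit, read paired ends, aligned them to Sscrofa11.1 with HISAT2 2.0.4, counted genes with HTSeq 0.9.1 and deposited FPKM for 8603 genes. Per the labels, the name of the table says that it holds differentially expressed genes. The comparison and threshold behind that are not given in the sources used here, so counts and shares are within the table. Strand use in counting is likewise not given.

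FPKM values move in steps of 1 fragment, which gave back the fragment numbers of 100% of genes, each within 0.002 of a whole number or, for large numbers, within 5e-07 of their size. This recovery, the fold rule and limma were also run on simulated data, in which every group had the same changed genes. The clone groups agreed there by construction. The simulation thus cannot show how the fold rule and limma behave where the groups differ. The fragments serve for the floor of 3 and the 95% intervals, while folds come from FPKM. Depth of the 6 parts was 14952784 to 21503604 fragments. The fold rule used a pseudocount of 1, a log2 difference of 1 and a minimum FPKM of 1. Because the unit was FPKM, no count model was used. limma 3.58.1 (R 4.3.3) was fitted to log2(FPKM + 1) of the 4 cloned parts with clone group as a block, and p-values were adjusted by Benjamini-Hochberg over all genes tested. The 2 clone groups are single pairs of libraries from different donors. These p-values thus rest on how far the IT to TE difference varied between the 2 groups, pooled mainly over all genes. They do not measure variation between replicate embryos of a condition.

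Alternative settings were 0.1 as pseudocount, 5 or none as minimum FPKM, a common sum of 1000000, median-ratio scaling, a log2 difference over 2, an added exact binomial test on fragments with an adjusted p under 0.005 and, for limma, no block, the IV-D pair added, and trend with robust. Named genes were, in each direction, the 12 shared genes at an FPKM of at least 10 with the largest smaller difference, shared genes of 3 lineage lists, fixed lineage markers, the 3 largest genes of opposite sign and up to 4 shared genes of each of the other lists; further members were named for their role after their values were seen. The genes, the 22 lists, written from general knowledge, and the tests were chosen with earlier results of these data known. Symbols and positions came from RefSeq, and promoter windows of 250 bases from its Sscrofa11.1 genome. Versions were scipy 1.17.1, numpy 2.4.6, matplotlib 3.10.9 and pandas 2.3.3 under Python 3.11.15.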

Additional observations from a re-analysis of the deposited data

Results flagged for a closer look

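In total 17 genes passed the fold rule in both clone groups in opposite directions, 15 of them higher in IT in NT-D and in TE in NT-LW. They were singled out because the 2 clone groups moved opposite ways, and the difference between the groups was not tested, since each rests on 1 pair of libraries a group. By the size of the smaller difference the first 3 had no symbol. ENSSSCG00000028810 was at 18.5 FPKM in IT and 0.747 in TE in NT-D and at 1.19 and 51.8 in NT-LW, a log2 difference of -4.59 there. ENSSSCG00000000296 had -2.32 in NT-LW against 2.34 in NT-D, and ENSSSCG00000024911 had -3.52 against 2.29. Of the 6 with a symbol, MT1X, a metallothionein that binds zinc and copper, was at 88.9 and 0.805 FPKM in NT-D and at 97.4 and 420.2 in NT-LW. In IV-D, 12 of the 17 were higher in IT and 3 were higher in TE past the fold, beside 18.0% and 9.83% of all genes tested there.

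The other 4 were higher in IT in both clone groups and higher in TE past the fold in IV-D, and the difference between clones and IV-D was not tested. The IV-D log2 difference was -3.27 for APOC3, -5.26 for LY6G6C, -2.42 for ENSSSCG00000034995 and -2.64 for ENSSSCG00000028322. LY6G6C rested on 2 fragments in IV-D IT.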

How the results depend on the processing

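With 1 library a condition, replicate numbers pair nothing. The limma fit paired IT and TE by clone group, and its counts without that block are given below. The counts depended on the settings, and the cause was not tested beyond what each setting does by construction. With a pseudocount of 0.1, NT-D had 478 genes higher in IT and 81 higher in TE, NT-LW 623 and 144, the shared genes were 145 and 7, with 32 of opposite sign, and 101 and 11 of the shared genes were higher in IT and TE in IV-D. With a minimum FPKM of 5, these were 165 and 15 in NT-D, 214 higher in IT in NT-LW, 39 shared in IT, 9 of opposite sign and 26 in IV-D IT. With a log2 difference over 2, they were 61 and 1, 43 and 10, 16 and 0 shared, 6 of opposite sign, and 11 and 1 in IV-D. Rescaling to a sum of 1000000 gave 44 higher in TE in NT-D, 565 higher in IT in NT-LW and 9 of the shared genes higher in TE in IV-D. Median-ratio scaling gave 200 and 213 in NT-LW and 65 shared in IT, all among the 80. No minimum FPKM and the binomial test moved no count by over 1.5 times. For limma, the genes higher in IT and TE were 79 and 0 with a pseudocount of 0.1, 109 and 7 with a minimum FPKM of 5, 119 and 4 after rescaling to a sum of 1000000, 91 in IT with median-ratio scaling, 33 in TE with trend and robust, and 0 and 0 without the block, with IV-D added or with no minimum FPKM. Of 560 values of the 40 named genes under these settings, 0 reversed and 51 moved outside their counting interval. The minimum FPKM, the larger fold and the binomial test leave the difference of a gene unchanged by construction. Only the pseudocount and the scalings could move a value, so these counts do not measure stability. Depth limits genes at few fragments, as 12 of the 80 had 1 to 3 in NT-D TE.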

Other observations

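Genes of sterol synthesis, such as the late enzymes SC5D and DHCR7, showed a pattern that the fold rule did not pick up. Of the 16 in the table, 14 had their lower value in IT in both clone groups and 1 its higher value, beside 1269 lower and 3583 higher of the 8603 genes of the table. The medians were -0.24 in NT-D, -0.83 in NT-LW and -1.37 in IV-D, and they stayed below 0 with rescaling to a sum of 1000000 (-0.27, -0.73 and -1.32) and with median-ratio scaling (-0.32, -1.13 and -1.54). CYP51A1, which demethylates lanosterol, was at 15.9 FPKM in IT and 22.2 in TE in NT-D, at 24.5 and 51.3 in NT-LW, and at 0.668 and 34.1 in IV-D. Past the fold, none of the 16 was higher in TE in NT-D, 4 were in NT-LW and 9 were in IV-D. STARD4, a sterol carrier, was higher in IT in NT-D and in IV-D past the fold and at 11.12 and 8.09 FPKM in NT-LW.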
